A study of Mus musculus with 17 samples.

Results

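The intergenic piRNA loci 13-qA5-208, 3-qA2-617 and 2-qE5-4 gave more small RNA in testes of Mael-/- mice than in wild-type testes, while most loci of their kind gave less. They are 3 of the 100 piRNA loci that the tables name by chromosome and chromosome band, here called band-named, and 3 of 214 piRNA loci in all, the other 114 being named after genes. They were chosen by their higher small RNA counts in Mael-/- than in wild type, so that contrast is given for them as a description, without a test. Every member was counted in each of the 9 libraries that list piRNA loci and passed the filter on low counts in both comparisons. The other 8 libraries, of mRNA and ribosome footprints, list transcripts and none of these loci.

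PIWI-interacting RNAs, or piRNAs, are short germ cell RNAs that lead PIWI proteins to their targets and take part in silencing transposons. In mouse testis the most abundant piRNAs are made during meiosis from long single-stranded precursor transcripts of intergenic loci, which are cut into intermediates and then trimmed to mature length. Maelstrom, the product of Mael, is a conserved germ cell protein of this pathway and is needed for transposon silencing and for sperm formation in mice.

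All libraries came from testis of strain 129SvJae. The groups used were small RNA of 15 to 50 nt from Mael-/- testis and from wild-type testis (2 libraries each), long RNA precipitated from wild-type testis with an antibody against MAEL (2 libraries) or with rabbit IgG (1 library), and RNA of 50 to 150 nt and of 15 to 50 nt precipitated from wild-type testis with the MAEL antibody (1 library each). The labels give no ages and do not say that the libraries within a group are from different animals, and a p-value then speaks only of the spread among these libraries, which may be technical. Small RNA libraries held between 4831638 and 44416966 counts, long-RNA precipitates between 5747210 and 10863053, and the size-selected precipitates 68922710 at 50 to 150 nt and 172728187 at 15 to 50 nt. Libraries of a group differed by more than counting noise, with chi-square values per degree of freedom of 49.4 in Mael-/- small RNA, 12.03 in wild-type small RNA and 51.5 with anti-MAEL. Mael transcripts, a check of the labelled genotypes, and markers of testis cell types were not analysed here, because the tables hold transcript identifiers that the reference tables do not pair with genes. In whole testis, fewer cells of a type and less RNA per cell cannot be told apart.

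The loci differed in size. The locus 3-qA2-617, on chromosome 3 band qA2, was the longest of the 100 band-named loci at 69605 nt. The locus 13-qA5-208, on chromosome 13 band qA5, measured 32293 nt and was the 25th longest, and 2-qE5-4, on chromosome 2 band qE5, measured 13441 nt, close to the median of 14699 nt. Positions within the bands are not in the tables, and no locus sequence was used here.

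In small RNA, 13-qA5-208 stood at 12261 and 11996 CPM (counts scaled to the library total) in the 2 Mael-/- libraries, against 1754 and 1686 CPM in the 2 wild-type libraries. In CPM, both Mael-/- libraries lay far above both wild-type ones, and libraries of the same genotype were close to each other. The mean was 12129 ± 188 CPM in Mael-/- and 1720 ± 48.5 CPM in wild type (SD, n = 2 each), a ratio of 7.05. Over any pairing of 1 Mael-/- with 1 wild-type library, the CPM ratio stayed between 6.84 and 7.27. This closeness holds for library totals. The TMM scaling described below has factors of 1.18 and 1.97 for Mael-/- libraries a and b and 0.579 and 0.742 for wild-type ones. On that scale libraries of a genotype lie farther apart at this locus, and the fold change is smaller.

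The locus 3-qA2-617 stood at 4784.2 and 4783.9 CPM in Mael-/-, against 609 and 675 CPM in wild type, a ratio of means of 7.45. Here too the genotypes were far apart in CPM, and single-library CPM ratios ran from 7.09 to 7.85, again relative to library totals. The ratio of 13-qA5-208 to 3-qA2-617 in CPM was 2.56 and 2.51 in Mael-/- and 2.88 and 2.498 in wild type, so the 2 loci stood in nearly the same proportion in both genotypes.

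The locus 2-qE5-4 was scarce. It stood at 66.9 and 111 CPM in Mael-/-, against 15.8 and 14.7 CPM in wild type. These values rest on 1463 and 537 counts in Mael-/- and on 701 and 114 counts in wild type. In CPM, the Mael-/- libraries differed more from each other than at the other members, at 89.0 ± 31.3 CPM (SD, n = 2). Both exceeded the wild-type libraries, which averaged 15.2 ± 0.795 CPM (SD, n = 2). The ratio of means was 5.85, and single-library ratios ran from 4.24 to 7.58. The wider spread in Mael-/- holds for library totals. With the TMM factors of 1.18 and 1.97, Mael-/- libraries a and b lie closer together here than at the other members.

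**Figure D1:**
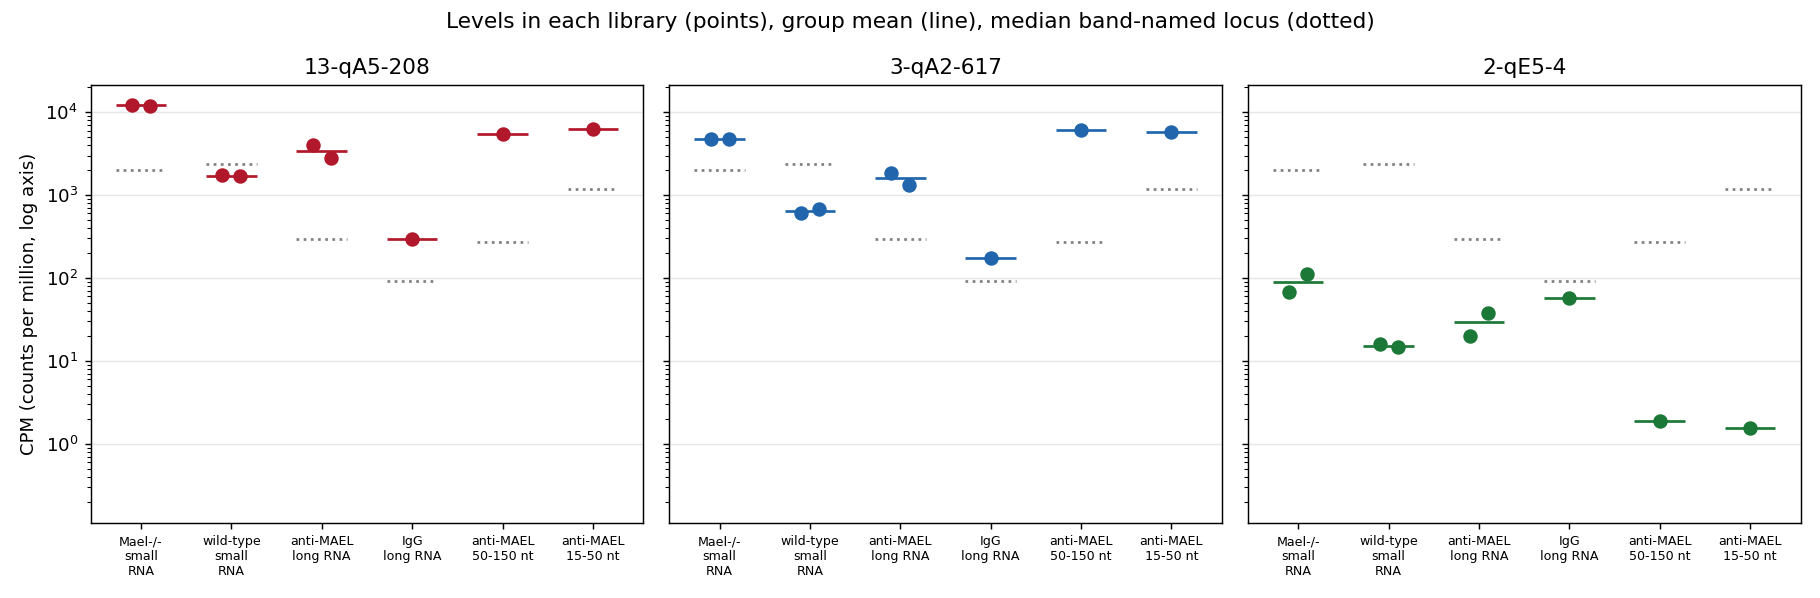
Level of each locus in CPM on a log axis, by library group; points are libraries, solid lines group means and dotted lines the median of the 100 band-named loci. The loci 13-qA5-208 and 3-qA2-617 lie above the median locus in Mael-/- small RNA and in all precipitates and below it in wild-type small RNA, while 2-qE5-4 lies below it throughout.

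The choice of members used this contrast, so its background is given and nothing is read from it. Both Mael-/- libraries exceeded both wild-type libraries in CPM at 62.6% of 12683 features with at least 20 counts, and at 17.0% of the band-named loci. Band-named loci as a class took 69.6% and 62.0% of Mael-/- counts and 79.4% and 78.6% of wild-type counts. With TMM scaling, which sets libraries by the bulk of features and moved the median feature by -1.26 on the log2 scale relative to library totals, the fitted log2 fold changes were 1.73 ± 0.554 (SE) at 3-qA2-617, 1.64 ± 0.592 at 13-qA5-208 and 1.26 ± 0.418 at 2-qE5-4. Without Mael-/- library a they were 0.99, 0.89 and 0.95 in the same order of loci. The other 96 band-named loci that passed the filter had a median of -1.72 (interquartile range -1.98 to -1.35), with 94 below 0. All features had a median of 0.15 and the 114 gene-named loci one of -0.02. With library totals the median over all features was 1.42.

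The locus just outside the choice was 7-qD2-40, with a log2 fold change of 0.76 and levels of 178 ± 26.7 CPM in Mael-/- and 44.6 ± 5.40 CPM in wild type (SD, n = 2 each). The next was 14-qA3-2286 at 0.12, followed by 10-qC1-1527 at -0.09. The lowest member, 2-qE5-4, stood 0.50 above 7-qD2-40, which itself stood 0.64 above the next locus. This contrast was used for the choice, so these gaps mark no boundary. On the same band as 13-qA5-208, the tables list 4 more loci, whose CPM ratios of Mael-/- to wild type on the log2 scale (pseudocount 0.5 CPM) ran from -0.81 at 13-qA5-967 to 1.00 at 13-qA5-464. The member 13-qA5-208 was at 2.82 on that scale.

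The standing of the members within their class was higher in Mael-/-, which the way they were chosen favours, so it is given as a description. By CPM, 13-qA5-208 ranked 17th and 14th of the 100 band-named loci in the Mael-/- libraries and 54th and 56th in the wild-type libraries. The locus 3-qA2-617 ranked 33rd and 30th in Mael-/- and 74th in both wild-type libraries, and 2-qE5-4 ranked 92nd and 84th in Mael-/- and 98th in both wild-type libraries. Together, 13-qA5-208 and 3-qA2-617 held 2.45% and 2.71% of all band-named counts in Mael-/-, against 0.298% and 0.300% in wild type.

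**Figure D2:**
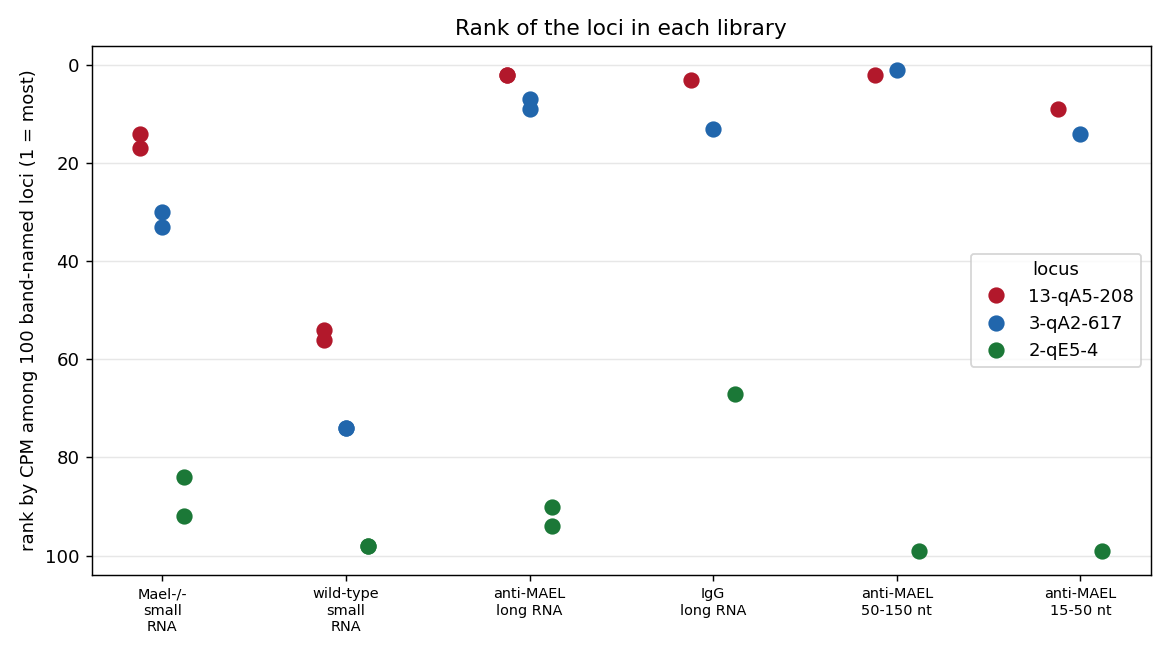
Rank by CPM of each locus among the 100 band-named loci, where 1 is the most abundant; points are libraries. In wild-type small RNA the 3 loci rank from 54 to 98, and in the anti-MAEL 50 to 150 nt library 3-qA2-617 and 13-qA5-208 take ranks 1 and 2 while 2-qE5-4 is at 99.

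The loci were also compared per length. Per kb of the locus, small RNA at 13-qA5-208 reached 379.7 and 371 CPM per kb in Mael-/-, against 54.3 and 52.2 in wild type. The density at 3-qA2-617 was lower, at 68.7 CPM per kb in both Mael-/- libraries, against 8.75 and 9.69 in wild type. At 2-qE5-4 it was 4.97 and 8.27 CPM per kb in Mael-/-, against 1.17 and 1.09 in wild type. The median band-named locus held 129 and 107 CPM per kb in Mael-/- and 161 and 167 in wild type. Per kb, 13-qA5-208 was therefore denser than the median locus in Mael-/- and sparser in wild type, and the other members were sparser in both genotypes.

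The higher count in Mael-/- was not shared by every entry of a locus. The tables give 13-qA5-208 in 3 entries, 3-qA2-617 in 2 and 2-qE5-4 in 1, and the entry with the most counts stands for the locus. The entries 13-qA5-208.1 and 13-qA5-208.2 differ by 458 nt and by 5 to 103 counts in any library, so their totals were nearly equal. The third entry, 13-qA5-208.3, is 1445 nt long and stood at 13.1 and 9.31 CPM in Mael-/-, against 15.3 and 15.7 CPM in wild type. Both Mael-/- libraries lay below both wild-type libraries there, on 286 and 45 counts in Mael-/- and 679 and 122 counts in wild type, and the ratio of means was 0.723. How many features lay below in this way was not counted. The other 97 band-named loci had a median log2 ratio of -0.57 (pseudocount 0.5 CPM), against -0.47 (no pseudocount) at this entry. Its density was 9.04 and 6.45 CPM per kb in Mael-/-, against 10.6 and 10.9 in wild type. The sources used here say neither how the entries overlap nor where a read matching several of them was counted.

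The entries of 3-qA2-617 gave nearly the same values. They differ by 2547 nt, and the longer entry held 28 and 5 more counts in the Mael-/- libraries and 36 and 11 more in the wild-type ones. Over all 9 libraries this difference ran from 0.0102% of the locus at 50 to 150 nt with anti-MAEL to 1.12% with IgG.

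**Figure D3:**
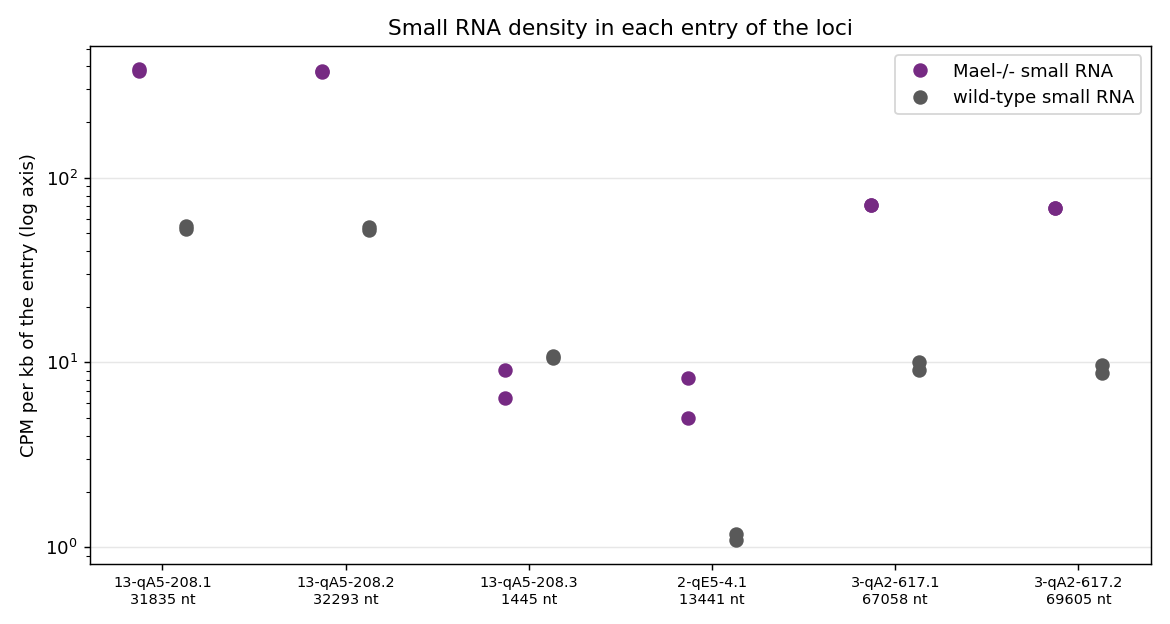
Small RNA density of each entry in CPM per kb on a log axis; points are libraries, Mael-/- left of wild type in each pair. Mael-/- lies above wild type at every entry except 13-qA5-208.3, where it lies below.

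The next comparison asked whether RNA of these loci came down with MAEL. Long RNA precipitates were not used to choose the members, so this contrast was tested. The library kit for long RNA does not keep the strand, so a precursor and any transcript on the opposite strand cannot be told apart.

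Long RNA of 13-qA5-208 stood at 3974 and 2836 CPM with anti-MAEL, against 291 CPM with IgG (exact 95% interval 280 to 304, counting error only). Each anti-MAEL library was above IgG, at 13.6 and 9.73 times its level. In CPM, both anti-MAEL libraries were above IgG at 17.0% of 16643 features with at least 20 counts. The locus ranked 2nd of the 100 band-named loci by CPM in both anti-MAEL libraries and 3rd with IgG. Per kb it ranked 3rd and 5th with anti-MAEL and 26th with IgG. Its log2 fold change was 3.97 ± 1.39 (SE), and after adjustment over all features it missed the threshold (adjusted p = 0.346, unadjusted p = 0.0174 by edgeR's quasi-likelihood test). DESeq2, run as an alternative, called it higher (adjusted p = 1.37e-10).

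Long RNA of 3-qA2-617 stood at 1854 and 1341 CPM with anti-MAEL, against 172 CPM with IgG (exact 95% interval 163 to 182). The anti-MAEL libraries were 10.8 and 7.78 times the IgG level. The log2 fold change was 3.64 ± 1.05 (SE) and did not pass the edgeR test (adjusted p = 0.190), while DESeq2 gave an adjusted p of 6.12e-09 and edgeR without the filter on low counts, which called 2.49% of features higher, one of 0.0106.

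At 2-qE5-4 the order was the opposite. With library totals, the median log2 fold change over all features tested was itself below 0, at -0.28. How many features had both anti-MAEL libraries below IgG was not counted. Long RNA stood at 20.2 and 38.1 CPM with anti-MAEL, against 58.1 CPM with IgG (exact 95% interval 52.8 to 63.7). Both anti-MAEL libraries were below IgG, the log2 fold change was -0.70 ± 0.275 (SE), and neither edgeR (adjusted p = 0.482) nor DESeq2 (adjusted p = 1.000) called it.

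With edgeR 0 of the 3 members were called, where 1.28% of 16066 features were called higher and 0.0% lower, and at an unadjusted p under 0.05 there were 2 members higher, against 6.76% of features, and 1 lower, against 0.865%. With DESeq2 2 of the 3 were called higher, against 2.16% of features. Among the 99 band-named loci tested, 13-qA5-208 had the 7th largest fold change, 3-qA2-617 the 16th and 2-qE5-4 the smallest. The other 96 band-named loci all lay above IgG with TMM scaling (6 of them below it with library totals), at a median of 2.29 on the log2 scale (interquartile range 1.03 to 3.20), and 10 of them were called higher by edgeR. At an unadjusted p under 0.05, 77 of these 96 loci were higher and 0 lower, so a higher value at this threshold was common in the class. The share of band-named loci called by DESeq2 was not counted. The median log2 fold change was 0.31 over 113 gene-named loci and 0.02 over all features. The single IgG library gives no measure of how much the background varies.

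**Figure D4:**
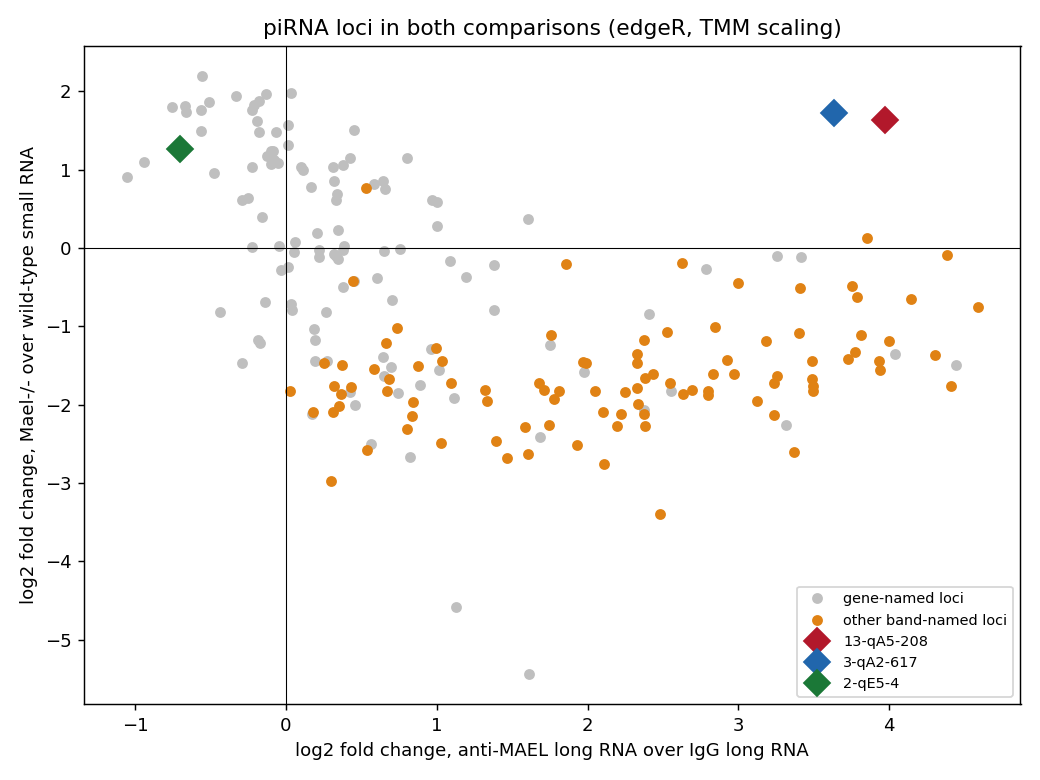
Log2 fold change of each piRNA locus with anti-MAEL over IgG (horizontal) against that in Mael-/- over wild-type small RNA (vertical), both from edgeR with TMM scaling; diamonds are the 3 loci. The loci 3-qA2-617 and 13-qA5-208 lie apart from the other band-named loci at the upper right, and 2-qE5-4 lies among gene-named loci at the upper left.

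Set side by side, these comparisons, which share no library, divided the members. Of 99 band-named loci measured in both, 94 were lower in Mael-/- small RNA and above IgG, 4 were higher in Mael-/- and above IgG, and 1, 2-qE5-4, was higher in Mael-/- and below IgG. Of 113 gene-named loci, 52 were lower in Mael-/- and above IgG, 30 higher and below, 25 higher and above, and 6 lower and below. With library totals in place of TMM, 71 band-named loci were lower in Mael-/- and above IgG, 21 higher and above, 6 lower and below, and 2-qE5-4 was again the 1 locus that was higher in Mael-/- and below IgG. Of the gene-named loci, 56 were then higher in Mael-/- and below IgG, 31 higher and above, 22 lower and above, and 4 lower and below. Across the 96 other band-named loci the fold changes had a Spearman rho of 0.37, as a description over loci that share the same libraries.

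RNA of 50 to 150 nt that came down with MAEL is longer than mature piRNAs and shorter than the precursors. In this library 3-qA2-617 had the most counts of all 100 band-named loci and 13-qA5-208 the second most. Per kb of the locus, 13-qA5-208 ranked 2nd and 3-qA2-617, the longest locus, ranked 6th. The locus 3-qA2-617 stood at 6116 CPM (exact 95% interval 6098 to 6135), on 421537 counts, and 13-qA5-208 at 5510 CPM (5492 to 5527), on 379732 counts. These 2 loci held 20.3% of the band-named counts, against 9.40% and 8.21% in the anti-MAEL long-RNA libraries and 4.18% with IgG. The median band-named locus stood at 274 CPM. The locus 2-qE5-4 had 130 counts, or 1.89 CPM (1.58 to 2.24), and ranked 99th. Without a replicate or an IgG library of this size class, these are values without a test.

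RNA of 15 to 50 nt that came down with MAEL gave 6265 CPM at 13-qA5-208 (exact 95% interval 6254 to 6277), the 9th most of the band-named loci, and 5701 CPM at 3-qA2-617 (5690 to 5712), the 14th most. Per kb of the locus they ranked 11th and 41st. The locus 2-qE5-4 had 1.56 CPM (1.38 to 1.76) and ranked 99th. Relative to the mean of wild-type small RNA, the log2 ratio with a pseudocount of 0.5 CPM was 1.86 at 13-qA5-208 and 3.15 at 3-qA2-617, and -2.93 at 2-qE5-4. The other 97 band-named loci had a median of -1.69, and 23 of them were above 0. Wild-type small RNA was also part of the choice of members, which favours a high ratio, so nothing is read from its distance to the other loci. The short entry 13-qA5-208.3 held 2155 counts, or 12.5 CPM, in this library.

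The size classes of anti-MAEL RNA were set against each other within each locus. The log2 ratio of 50 to 150 nt over 15 to 50 nt anti-MAEL RNA was 0.10 at 3-qA2-617, -0.19 at 13-qA5-208 and 0.21 at 2-qE5-4, and its median over the other 97 band-named loci was -2.14, with 8 above 0. At 2-qE5-4 this value rests on 130 and 270 counts. The ratio of 13-qA5-208 to 3-qA2-617, which was 2.498 to 2.88 in small RNA of both genotypes, was 2.14 and 2.11 in anti-MAEL long RNA, 1.69 with IgG, 0.901 at 50 to 150 nt and 1.10 at 15 to 50 nt. The order of these loci was thus turned round in the 50 to 150 nt library alone.

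Anti-MAEL long RNA was also set against small RNA of each locus. Small RNA of both genotypes was used to choose the members. The choice favours a high ratio to wild-type and a low ratio to Mael-/- small RNA, so both are given as a description. The log2 ratio of anti-MAEL long RNA to wild-type small RNA, each relative to its library total, was 1.31 at 3-qA2-617, 0.99 at 13-qA5-208 and 0.92 at 2-qE5-4, which ranked 4th, 6th and 7th of the 100 band-named loci. The other loci had a median of -3.08. Set against Mael-/- small RNA, the same long RNA gave -1.58 at 3-qA2-617, -1.83 at 13-qA5-208 and -1.59 at 2-qE5-4, which ranked 34th, 39th and 35th, and the median of the others was -2.56. At 2-qE5-4 the long RNA with MAEL was below that with IgG, so neither of its ratios measures RNA beyond the background.

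Over the 9 libraries, each locus takes its levels in an order. At 13-qA5-208 the highest level was in Mael-/- small RNA, followed by the 15 to 50 nt and 50 to 150 nt anti-MAEL libraries, anti-MAEL long RNA, wild-type small RNA and IgG. At 3-qA2-617 the 50 to 150 nt library came first, then 15 to 50 nt, Mael-/- small RNA, anti-MAEL long RNA, wild-type small RNA and IgG. At 2-qE5-4 the order ran from Mael-/- small RNA over IgG, anti-MAEL long RNA and wild-type small RNA to the 50 to 150 nt and 15 to 50 nt libraries. Levels are relative to each library's total, of which band-named loci took between 1.11% (IgG) and 79.4% (wild-type small RNA library a). The size-selected libraries have no replicate, so how far their places in these orders would vary is not known. Of neighbours in these orders, several at 2-qE5-4 were not apart. Its last pair overlapped in counting intervals, as did IgG with Mael-/- small RNA library a, and anti-MAEL long RNA library a with both wild-type small RNA libraries. Its mean in Mael-/- small RNA and its IgG level differed by less than the SD of the Mael-/- libraries.

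Profiles over these 9 libraries were compared by the root-mean-square distance of log2(CPM + 0.5), each locus centred on its own mean, among 214 loci. The profiles nearest to 13-qA5-208 were those of 3-qA2-617 at 0.55, 14-qA3-2286 at 0.67 and 10-qC1-1527 at 0.69, where the median locus was at 2.05. Nearest to 3-qA2-617 were 13-qA5-208 at 0.55, 10-qC1-1527 at 0.80 and 14-qA3-2286 at 0.85, where the median locus was at 2.36. Both lists thus hold 14-qA3-2286, at 2037 CPM in Mael-/- against 864 CPM in wild type, and 10-qC1-1527, at 5471 CPM in Mael-/- against 2617 CPM in wild type. With TMM scaling their log2 fold changes were 0.12 and -0.09. The members were chosen on this contrast, which favours a smaller difference at other loci.

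The 3 profiles nearest to 2-qE5-4 belonged to gene-named loci, pi-Ankrd11 at 0.34, pi-Ppp1r15b at 0.54 and pi-Eya3 at 0.56, against a median of 2.36. They are named after genes of a chromatin regulator, of a regulatory subunit of the eIF2alpha phosphatase and of a phosphatase that acts as a transcription cofactor. The locus pi-Ankrd11 stood at 50.9 CPM in Mael-/- and 5.51 CPM in wild type, and its long RNA at 19.4 CPM in the anti-MAEL mean and 30.2 CPM in IgG. The other members were 2.58 and 2.94 away from 2-qE5-4, farther than the median locus. Every profile shares the same libraries and depths, and the small RNA values that chose the members are among them.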

How the data were processed

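The members and lists were chosen with earlier results of these data known. The deposited tables hold counts of reads per transcript or locus entry, which the authors did not normalize, with the entry's size in nt. Build mm9, TopHat2 2.0.7, Bowtie2 2.0.6 and CASAVA 1.8 appear in the submitters' processing notes without a stated role. The sources used here do not give the handling of reads that fit more than 1 feature. Of a locus's entries, that with the largest sum over 9 libraries was kept, which gave 38207 features. CPM is relative to library totals over these features, and CPM per kb divides it by the entry's size.

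Fold changes came from edgeR 4.0.16 in R 4.3.3 (quasi-likelihood, TMM, filterByExpr, Benjamini-Hochberg over all features, threshold 0.05), over 4 small RNA libraries with genotype as the only term, and over 3 long-RNA precipitates. The SE of an edgeR fold change is its absolute value divided by the square root of its quasi-likelihood F statistic. The single IgG library is assumed to vary like the others. DESeq2 1.42.0, other scalings, no filter, other entries and left-out libraries were alternatives. The edgeR fit alone was tested on simulated data. Python 3.11.15, pandas 2.3.3, scipy 1.17.1 and matplotlib 3.10.9 did the rest. Named loci are the members, the band-named loci next to them in fold change, loci of the same band, and the 3 nearest profiles with a mean of at least 1 CPM; loci of the same band were added after values were seen. Intervals are exact binomial ones and, since reads carry no molecular identifiers, cover counting error only.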

Additional observations from a re-analysis of the deposited data

How the results depend on the processing

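In small RNA, the size of each member's fold change depended on the scaling, and its direction did not. At 13-qA5-208 the log2 fold change of Mael-/- over wild type was 2.82 with library totals, 3.03 with totals of the piRNA loci, 1.52 with size factors and with DESeq2, and 1.60 with the replicate block. At 3-qA2-617 it was 2.90, 3.11 and 1.61 (both by size factors and by DESeq2), and at 2-qE5-4 2.55 with library totals and 2.77 with piRNA totals. Leaving out 1 library in turn gave 0.89 to 2.13 at 13-qA5-208, 0.99 to 2.20 at 3-qA2-617 and 0.95 to 1.44 at 2-qE5-4, lowest without Mael-/- replicate a. Taking the entry with the fewest counts turned 13-qA5-208 to -1.57, and to -0.32 for the 15 to 50 nt ratio, an alternative chosen after seeing the data. By construction this is the 1445 nt entry. Letters a and b are not stated to pair libraries. Their deviations were correlated across features (0.55), and the replicate block gave 1.69 at 3-qA2-617 and 1.26 at 2-qE5-4. For the precipitates no replicate block could be fitted, since IgG has 1 library.

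With anti-MAEL over IgG, DESeq2 called 13-qA5-208 (3.97) and 3-qA2-617 (3.63), and edgeR without a filter called 3-qA2-617 (3.61). Adjusted p over the tests ran from 1.37e-10 to 0.346, from 6.12e-09 to 0.290, and from 0.421 to 1.000 at 2-qE5-4. With 1 anti-MAEL library left out there was no test, and values were 3.32 to 4.44, 3.0 to 4.10 and -0.84 to -0.56. Taking the entry with the fewest counts lowered 13-qA5-208 from 3.97 to 1.85, which edgeR did not call (adjusted p = 0.112). The number of features called higher, 206, was 101 with library totals, 325 with size factors, 347 with DESeq2 and 661 without a filter, and the number lower was 0, against 1 with size factors and 10 without a filter. The 15 to 50 nt ratio was 3.48, 4.77 and -1.58 with piRNA totals at 13-qA5-208, 3-qA2-617 and 2-qE5-4, and -1.62 at 2-qE5-4 with a pseudocount of 5 CPM. The cause of these shifts was not tested.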
